A study of Homo sapiens with 6 samples.

Results

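The genes described here are 10 secreted or surface proteins that recruit and sustain leukocytes: the colony-stimulating factors CSF1, CSF2 and CSF3, the CC chemokines CCL2, CCL5 and CCL20, the chemokines CX3CL1, CXCL12 and CXCL16, and the adhesion molecule ICAM1. They were taken by gene symbol from the table of expression values, where all 10 had a row among 25545 genes. The samples were BT-549 cells, a long-established line of triple-negative breast cancer (TNBC), grown in medium with serum and insulin and transfected with a control siRNA (CsiRNA) or with an siRNA against the long noncoding RNA NEAT1 (NEAT1siRNA) for 48 h before RNA was isolated, with 3 cultures in each group. The labels carry the word tet in the sample titles although the treatment they name is an siRNA. The model is 1 cell line in culture, and the number of siRNA sequences in each group is not given in the labels. The comparison addresses how silencing of NEAT1 changes the transcriptome of these cells.

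Chemokines are small secreted proteins that bind G protein-coupled receptors on leukocytes and set the direction in which those cells move. CX3CL1 and CXCL16 are made as membrane proteins and are released by the proteases ADAM10 and ADAM17, so that they act both as adhesion molecules and as soluble attractants. Colony-stimulating factors drive the survival and maturation of myeloid cells. In breast tumors, CCL2 and CSF1 are known as signals from tumor cells to monocytes and macrophages, and ICAM1 is the surface ligand that leukocyte integrins hold on to. Several of these genes are textbook targets of the transcription factor NF-κB, and many of their mRNAs are short-lived.

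Expression is given in TPM, in which reads are divided by the length of the gene and every library is scaled to the same total. Groups were compared on log2(TPM + 1) with limma over the 10721 genes whose mean TPM was 1 or more, and a gene was called lower or higher at an adjusted p under 0.05. A fold change on this scale understates the change of low genes. Recovered reads per library ran from 15787257 to 20342818. The targeted RNA, NEAT1, stood at 13.4, 7.68 and 10.8 TPM in the CsiRNA libraries and at 4.36, 2.96 and 2.73 TPM in the NEAT1siRNA libraries, with a log2 fold change of -1.41 ± 0.14 (SE) and an adjusted p of 1.21e-07 from limma with Benjamini-Hochberg adjustment. All 3 NEAT1siRNA libraries lay below all 3 CsiRNA libraries. Of the markers of the line, VIM, FN1, CDH2, ZEB1 and SPARC were all expressed, and of these FN1 (log2 fold change -0.47 ± 0.09, SE) and CDH2 (-0.34 ± 0.09, SE) were lower with NEAT1siRNA, at adjusted p of 0.00116 and 0.0186 from limma, whereas of 12 leukocyte markers CD68 was the 1 whose mean TPM reached 1. The other 11, with CD3E, CD2, MS4A1 and FCGR3A among those listed at 0, had at most 14 recovered reads in a library. Together they summed to between 0.204 and 0.510 TPM with CsiRNA and to between 0.483 and 1.17 TPM with NEAT1siRNA. Most of the 1.17 TPM was S100A8 in NEAT1siRNA replicate 2, at 1.03 TPM and 11 reads. PTPRC went the other way, with 29 reads over the CsiRNA libraries and 8 over the NEAT1siRNA libraries. The part of these markers in the results was not tested. In bulk samples such as these, fewer cells that express a gene and less RNA per cell cannot be told apart.

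Promoter sequence was matched by symbol for 4 of the 10 genes (CCL20, CSF2, CXCL12 and ICAM1) in a RefSeq table on GRCh38.p14. The 250 bases before the RefSeq start of ICAM1 are printed because it was the member with the lowest adjusted p. They span chr19:10270870-10271119 on the plus strand, 5′ to 3′, and the capitals mark a κB-like match (GGAANNNCC) and a TATA match (TATAAA).

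ICAM1: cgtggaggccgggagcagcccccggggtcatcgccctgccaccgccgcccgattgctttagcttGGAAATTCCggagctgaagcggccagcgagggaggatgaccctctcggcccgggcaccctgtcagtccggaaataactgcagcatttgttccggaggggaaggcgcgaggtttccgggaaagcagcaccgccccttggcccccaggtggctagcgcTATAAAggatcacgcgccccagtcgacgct

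The κB-like match of ICAM1 began 186 bases before the RefSeq start and matched the motif on both strands. Shorter windows are shown, with the same capitals, for the low members CCL20 (chr2:227813752-227813830) and CSF2 (chr5:132073679-132073728), and for CXCL8 (chr4:73740469-73740557) and CXCL1 (chr4:73869303-73869362), chemokines outside the 10 with larger fitted falls. All of these windows are on the plus strand. The RefSeq starts of CCL20, ICAM1 and CXCL12 lie within the longer spans that GENCODE gives those genes. The end of the ICAM1 sequence, with part of its TATA match, therefore lies inside the span given for that gene below. The CCL20 window and the CXCL12 sequence lie wholly inside theirs.

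CCL20: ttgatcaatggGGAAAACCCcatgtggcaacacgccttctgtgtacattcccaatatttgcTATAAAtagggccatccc
CSF2: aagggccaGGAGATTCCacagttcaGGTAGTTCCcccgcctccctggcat
CXCL8: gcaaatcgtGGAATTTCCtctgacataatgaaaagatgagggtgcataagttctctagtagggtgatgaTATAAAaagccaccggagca
CXCL1: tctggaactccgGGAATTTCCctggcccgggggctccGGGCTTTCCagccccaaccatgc

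Both matches in CSF2 lie on the minus strand, as does the one of CXCL1 nearer the start, so their capitals show the reverse complement of the motif. The 250 bases before the RefSeq start of CXCL12 held neither motif. Both motifs were chosen after the sequences were seen and were searched on both strands. The κB-like motif was found in 17.1% and the TATA motif in 11.1% of 27305 promoters of the same length, so each is common and a match does not show a site in use. The matches stood upstream of genes that fell (ICAM1, CXCL8 and CXCL1) and of genes with almost no reads (CCL20 and CSF2). CXCL8 and CXCL1 were picked for their falls, and no promoter of a gene that rose is shown. This split therefore follows from the choice of genes.

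Of the 10 genes, 5 had a mean TPM of 1 or more and were tested. CCL2 and ICAM1 were lower after NEAT1 silencing, against 8.98% of all tested genes called lower. CSF1 was higher, against 4.99% called higher, and CCL5 and CXCL16 did not pass the threshold. The median log2 fold change was 0.01 over the 5 tested members and -0.04 over all tested genes, so the 5 did not move one way. With a scaling of the libraries other than the deposited TPM, the share of calls that are higher rose from 35.7% to between 43.9% and 54.8%, whereas the calls of CSF1, CCL2 and ICAM1 held under every such scaling. The NEAT1siRNA values of CCL2 and ICAM1 lay wholly below the CsiRNA range, as they did for 19.3% of tested genes. Those of CSF1 and CXCL16 lay wholly above it, as for 11.0%, and the groups of CCL5 overlapped.

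**Figure D1:**
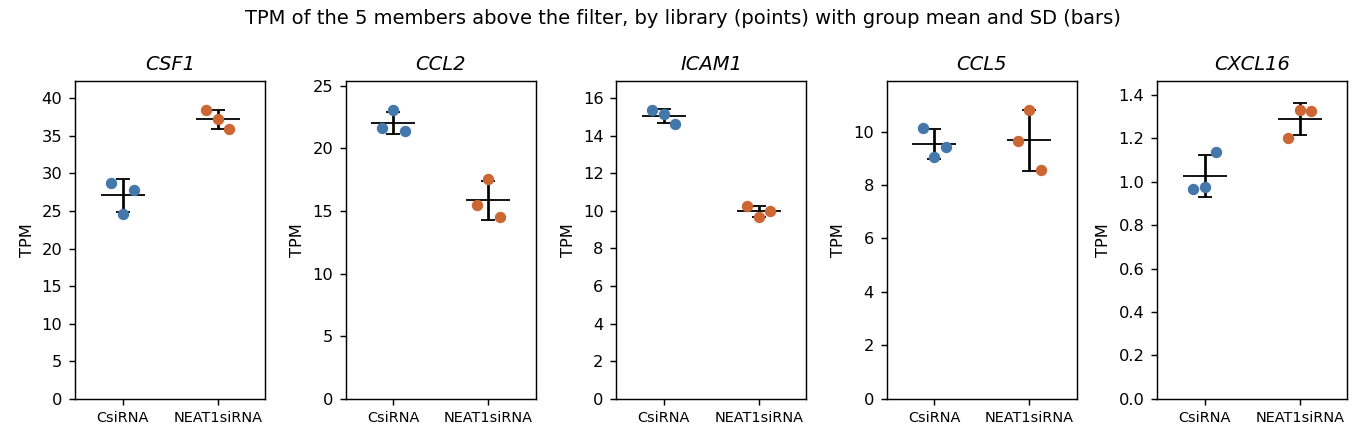
TPM (vertical axes, each starting at 0) of the 5 tested genes in the 3 CsiRNA (blue) and 3 NEAT1siRNA (orange) libraries, with the group mean and SD as black bars. The groups are apart for CSF1, CCL2, ICAM1 and CXCL16, by the least for CXCL16, and overlap for CCL5.

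Among the colony-stimulating factors, CSF1, the growth factor of the monocyte and macrophage lineage (chr1:109910242-109930992, plus strand), was the member with the highest level. Its TPM was 28.8, 24.6 and 27.8 with CsiRNA and 38.4, 37.3 and 35.9 with NEAT1siRNA. The lowest NEAT1siRNA library was above the highest CsiRNA library by more than the range within either group. The mean went from 27.1 ± 2.17 to 37.2 ± 1.25 TPM (SD, n = 3 each), or 137% of the control. The log2 fold change was 0.45 ± 0.09 (SE), with a 95% interval from 0.26 to 0.64 and an adjusted p of 0.00161 from limma with Benjamini-Hochberg adjustment. The value rests on 20761 recovered reads over the 6 libraries.

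CSF2 and CSF3, the granulocyte-macrophage and the granulocyte factors, were close to undetected. CSF2 (chr5:132073789-132076170, plus strand) had 1 recovered read in all, in CsiRNA replicate 3, where it stood at 0.0755 TPM. CSF3 (chr17:40015361-40017813, plus strand) was listed at 0 in all 6 libraries. A count of 0 in a library allows up to 3 reads, which is from 0.147 to 0.190 RPM of the recovered reads here and covers counting error only. No change of either gene was detectable at this depth. CSF1 had at least 2491 reads in every library, beside at most 1 read of each of the other colony-stimulating factors.

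Among the CC chemokines, CCL2, the main attractant of monocytes through the receptor CCR2 (chr17:34255274-34257208, plus strand), fell. Its TPM was 21.7, 23.1 and 21.4 with CsiRNA and 15.5, 17.5 and 14.5 with NEAT1siRNA. Every NEAT1siRNA library lay below every CsiRNA library. The mean went from 22.1 ± 0.901 to 15.8 ± 1.53 TPM (SD, n = 3 each), or 71.9% of the control. Its log2 fold change was -0.46 ± 0.09 (SE; 95% interval from -0.65 to -0.26) with an adjusted p of 0.00170 from limma with Benjamini-Hochberg adjustment.

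CCL5, which attracts T cells and monocytes (chr17:35871491-35880793, minus strand), stood at 10.1, 9.05 and 9.43 TPM with CsiRNA and at 9.65, 10.8 and 8.55 TPM with NEAT1siRNA. The highest and the lowest of the 6 values were both in the NEAT1siRNA group. An uncharacterised noncoding RNA overlaps CCL5 on the opposite strand and was not analysed here. The log2 fold change was 0.01 ± 0.10 (SE), and its 95% interval ran from -0.19 to 0.21. This interval leaves out a fall of the size fitted for CCL2. The ratio of CCL2 to CCL5 within a library was 2.14, 2.55 and 2.27 with CsiRNA and 1.60, 1.62 and 1.70 with NEAT1siRNA. All 3 NEAT1siRNA ratios were the lower ones.

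CCL20, the ligand of CCR6 on dendritic cells and T helper 17 cells (chr2:227805739-227817564, plus strand), had 2 recovered reads over the CsiRNA libraries and 1 over the NEAT1siRNA libraries. Its TPM was 0.0835 and 0.0825 in CsiRNA replicates 1 and 2, 0.0831 in NEAT1siRNA replicate 3 and 0 in the others. Each of these values is 1 read, so no difference was detectable. Expression among the CC chemokines of the group was thus held by CCL2 and CCL5.

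Both chemokines that are made as membrane proteins were low. CXCL16, the ligand of CXCR6 and a scavenger receptor for oxidized lipoproteins (chr17:4733533-4739928, minus strand), stood at 0.965, 0.974 and 1.14 TPM with CsiRNA and at 1.20, 1.33 and 1.33 TPM with NEAT1siRNA. The groups did not overlap, but the gap between them was narrower than the range within the CsiRNA group. The mean went from 1.03 ± 0.0972 to 1.29 ± 0.0735 TPM (SD, n = 3 each). The log2 fold change was 0.18 ± 0.10 (SE; 95% interval from -0.02 to 0.38), with an adjusted p of 0.250 from limma with Benjamini-Hochberg adjustment. On recovered reads, from 44 to 69 per library, the log2 fold change was 0.37 with an adjusted p of 0.150 from limma's voom with the same adjustment. MED11 overlaps CXCL16 on the opposite strand and stood higher, at 12.4 ± 0.114 TPM with CsiRNA and 13.1 ± 1.79 TPM with NEAT1siRNA, and whether the counting used strand is not given in the sources used here.

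CX3CL1, the ligand of CX3CR1 (chr16:57372477-57385044, plus strand), had 10 recovered reads in all, of which 4 were in the CsiRNA libraries and 6 in the NEAT1siRNA libraries. Of the latter, 5 came from replicate 3, so its level of 0.0759 TPM there was set by 1 library. The difference was not detectable at this depth. CXCL12, the ligand of CXCR4 and ACKR3 (chr10:44370165-44386493, minus strand), was listed at 0 in all 6 libraries. A listed 0 is not by itself a sign that a gene is silent: SLC25A6 and CD99, genes of the region shared by the X and Y chromosomes that most cells express, were listed at 0 in all 6 libraries too. CXCL12 lies on chromosome 10, outside that region, so those genes do not show whether its 0 has the same source.

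**Figure D2:**
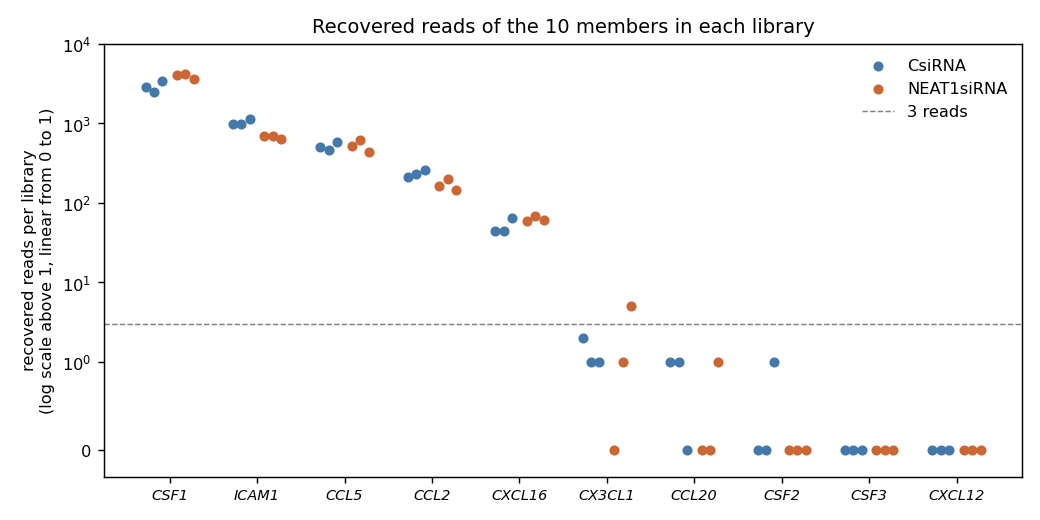
Recovered reads per library (vertical axis, logarithmic above 1 and linear from 0 to 1) of the 10 genes, with CsiRNA in blue, NEAT1siRNA in orange and a dashed line at 3 reads. CSF1, ICAM1, CCL5, CCL2 and CXCL16 had at least 44 reads in every library, and CX3CL1, CCL20, CSF2, CSF3 and CXCL12 had at most 5.

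ICAM1, the ligand of the leukocyte integrins LFA-1 and Mac-1 (chr19:10271093-10286615, plus strand), fell, with the smallest spread relative to its level among the tested members. Its TPM was 15.4, 15.2 and 14.6 with CsiRNA and 10.3, 9.68 and 9.97 with NEAT1siRNA. The gap between the groups was several times the range within either. The mean went from 15.1 ± 0.373 to 9.97 ± 0.295 TPM (SD, n = 3 each), or 66.2% of the control. The log2 fold change was -0.55 ± 0.09 (SE; 95% interval from -0.74 to -0.36) with an adjusted p of 0.000148 from limma with Benjamini-Hochberg adjustment, and 1.32% of tested genes had a lower log2 fold change. The noncoding RNAs LIMASI and ICAM4-AS1 overlap ICAM1 on the opposite strand and were not analysed here.

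**Figure D3:**
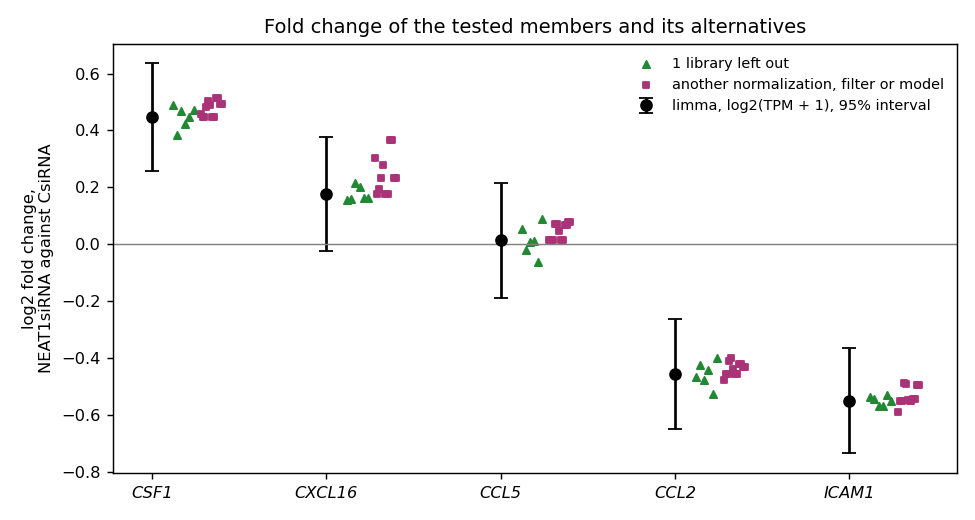
Log2 fold change of NEAT1siRNA against CsiRNA (vertical axis) for the 5 tested genes, with the limma value and its 95% interval in black, values with 1 library left out as green triangles and values from other normalizations, filters or models as magenta squares. CSF1 stays between 0.38 and 0.51, CCL2 between -0.53 and -0.40 and ICAM1 between -0.59 and -0.49, whereas CCL5 lies on both sides of 0.

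In TPM, which is per length, the order of levels with CsiRNA was CSF1, CCL2, ICAM1, CCL5 and CXCL16, and the ranges of no neighbours in this order overlapped. With NEAT1siRNA the order was the same, but the ranges of ICAM1 and CCL5 now overlapped, at 9.97 ± 0.295 and 9.67 ± 1.13 TPM (SD, n = 3 each). The place of CCL2 depends on the lengths the authors used, which are not given in the sources used here. For CCL2, 1 TPM stood for 10.7 recovered reads, against 54.4 for CCL5 and 108 for CSF1, so that CCL2 was above CCL5 in TPM while its 1216 reads in all were fewer than the 3135 of CCL5. The lengths of the main transcripts in the GENCODE annotation, 741 bases for CCL2 and 1299 for CCL5, differ by less than these values do. Per base of the main transcript, the recovered reads in all were 5.20 for CSF1, 2.41 for CCL5, 1.74 for ICAM1, 1.64 for CCL2 and 0.147 for CXCL16, so that on those lengths CCL2 stood below CCL5 and ICAM1.

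Ratios between genes within a library do not depend on how the libraries are scaled. They can depend on trends with GC content, which were not removed from them. Across genes, the deviation of a library from its group mean correlated with GC content. The Spearman values ran from -0.69 in NEAT1siRNA replicate 2 to 0.63 in NEAT1siRNA replicate 1. GC content was 57.0% for CSF1 and 43.7% for CCL2. The pairs were chosen after the values were seen, and 5 were computed. CSF1 to CCL2 was 1.33, 1.07 and 1.30 with CsiRNA and 2.49, 2.12 and 2.47 with NEAT1siRNA. The means were 1.23 ± 0.143 and 2.36 ± 0.204 (SD, n = 3 each), and every NEAT1siRNA library was above every CsiRNA library. CSF1 to ICAM1 was 1.80 ± 0.151 with CsiRNA and 3.73 ± 0.123 with NEAT1siRNA (SD, n = 3 each). ICAM1 to CCL2 was 0.684 ± 0.0264 and 0.634 ± 0.0717 (SD, n = 3 each), with overlapping groups and a log2 difference of -0.11 ± 0.10 (SE), so a difference between the falls of ICAM1 and CCL2 was not resolved. CXCL8 to CCL2 was 2.17 ± 0.220 and 1.21 ± 0.233 (SD, n = 3 each), with every NEAT1siRNA library lower. An exact two-sided permutation test of 3 against 3 gave p = 0.1 for each of the 4 ratios that did not overlap, which is the smallest it can give (adjusted over the 5 pairs, 0.125), and p = 0.5 for ICAM1 to CCL2.

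**Figure D4:**
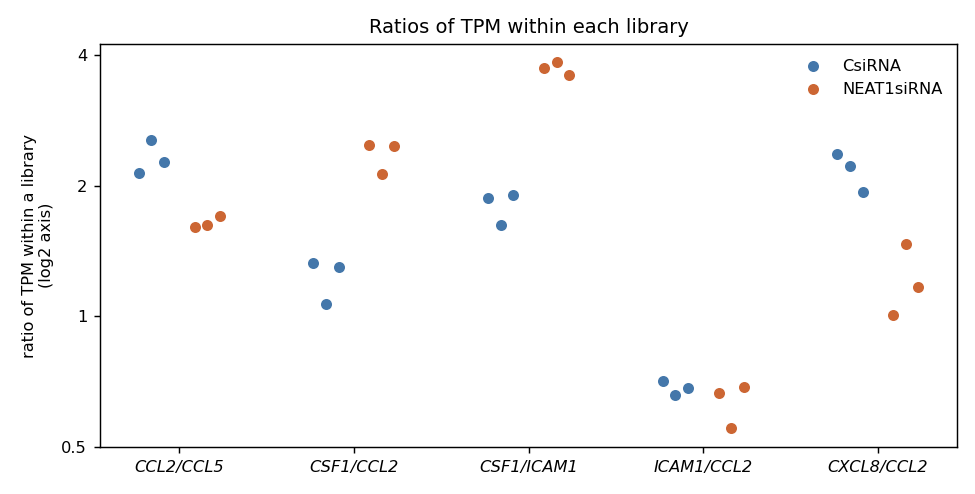
Ratio of TPM within a library (vertical axis, log2) for 5 pairs of genes, with CsiRNA in blue and NEAT1siRNA in orange. The NEAT1siRNA libraries lie wholly above the CsiRNA libraries for CSF1/CCL2 and CSF1/ICAM1, wholly below for CCL2/CCL5 and CXCL8/CCL2, and overlap them for ICAM1/CCL2.

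Of 97 genes listed by their role around these 10 (other chemokines, receptors, sheddases, binding proteins and regulators of mRNA decay), 30 were tested, of which 6 were lower and 4 higher. Over all tested genes, 8.98% were called lower and 4.99% higher. All 6 lower genes came from the list of CXC chemokines that attract neutrophils, where CXCL1, CXCL2, CXCL3, CXCL5, CXCL6 and CXCL8 all fell and PPBP was listed at 0. The median log2 fold change of that list was -0.85, and the smallest fall in it, of CXCL5 from 181 ± 15.5 to 119 ± 22.0 TPM (SD, n = 3 each), was fitted at -0.61. CXCL1 was the highest of them and went from 233 ± 8.45 to 122 ± 7.61 TPM (SD, n = 3 each), a log2 fold change of -0.93 ± 0.09 (SE). The fitted falls of CCL2 and ICAM1 were smaller than those of each of the 6, but ICAM1 and CXCL5 were close (66.2% and 66.0% of the control by mean TPM), and without NEAT1siRNA replicate 1 their order turned, at -0.57 for ICAM1 and -0.48 for CXCL5. The difference between ICAM1 and CXCL5 was not tested, and of the differences between members and the 6 the ratio of CXCL8 to CCL2, above, was the 1 that was tested. Of 31 other CC, XC and CXC chemokines, 0 passed the filter on TPM, 23 were listed at 0, and the most reads of any in 1 library were 5. CXCL10, which interferon induces, was among them at 0.183 ± 0.0307 TPM with CsiRNA and 0.200 ± 0.0449 TPM with NEAT1siRNA (SD, n = 3 each).

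The receptors for these ligands were nearly all at or near 0. None of 15 chemokine receptors was tested, and the highest count was 12 reads, for CXCR4 in NEAT1siRNA replicate 2. CCR2 had 2 recovered reads in all, CCR6 4 and CX3CR1 3, and CXCR6 was listed at 0. CSF1R, the receptor of CSF1, had 20 reads over the 6 libraries, at 0.0311 ± 0.0181 TPM with CsiRNA and 0.0393 ± 0.0155 TPM with NEAT1siRNA (SD, n = 3 each). CSF2RB and CSF3R were listed at 0, and so was CSF2RA, which lies in the region shared by X and Y. Of the LFA-1 and Mac-1 subunits, ITGAL had 2 reads, ITGAM 5 and ITGB2 3. ACKR3, a scavenging receptor of CXCL12, was the exception, at 7.70 ± 0.624 TPM with CsiRNA and 9.32 ± 0.833 TPM with NEAT1siRNA (SD, n = 3 each). Its log2 fold change of 0.24 ± 0.10 (SE) had an adjusted p of 0.0938 from limma with Benjamini-Hochberg adjustment, but passed the threshold under 7 of 18 alternatives. These 7 were quantile normalization, median centring, TPM without the 4 short RNAs, both fits with voom and both that removed the GC and length trend. Their adjusted p ran from 0.00237 to 0.0288 by limma or its voom, so the call of ACKR3 depends on how the libraries are scaled.

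Among cytokines related to the colony-stimulating factors, KITLG and FLT3LG were tested and called higher, the second less firmly. KITLG, the ligand of KIT, went from 7.18 ± 0.636 to 12.6 ± 2.34 TPM (SD, n = 3 each). Its log2 fold change was 0.72 ± 0.11 (SE), with an adjusted p of 6.08e-05 from limma with Benjamini-Hochberg adjustment. FLT3LG, the ligand of FLT3, went from 2.72 ± 0.129 to 3.59 ± 0.126 TPM (SD, n = 3 each). Its log2 fold change was 0.30 ± 0.09 (SE), with an adjusted p of 0.0312 from the same test. The call of FLT3LG was lost when any library but NEAT1siRNA replicate 2 was left out, with adjusted p from 0.0625 to 0.123 by limma, and also without the filter (0.0886) and with voom (0.0514 with TMM and 0.0566 with library totals), so that it held under 9 of 17 alternatives. IL34, the other ligand of CSF1R, had 10 reads in all.

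The proteases that release CX3CL1 and CXCL16 did not pass the threshold, with ADAM10 at 38.2 ± 2.49 and 35.7 ± 5.11 TPM and ADAM17 at 24.8 ± 1.72 and 22.3 ± 2.56 TPM in the CsiRNA and NEAT1siRNA groups (SD, n = 3 each). Of the proteoglycans that hold chemokines at the cell surface, SDC2 and SDC3 were higher, and SDC1, SDC4 and GPC1 did not pass. SDC3 went from 5.22 ± 0.491 to 8.49 ± 0.265 TPM (SD, n = 3 each). Its log2 fold change was 0.61 ± 0.09 (SE), with an adjusted p of 7.53e-05 from limma with Benjamini-Hochberg adjustment. SDC2 went from 1.32 ± 0.202 to 2.18 ± 0.483 TPM (SD, n = 3 each), a log2 fold change of 0.45 ± 0.11 (SE) with an adjusted p of 0.00732 from the same test, a call that was lost without the filter on TPM. Of the relatives of ICAM1, ICAM3 (log2 fold change 0.00 ± 0.10, SE) and ICAM5 (-0.17 ± 0.09, SE) were tested and did not pass, VCAM1 had at most 4 reads in a library, and ICAM2 was listed at 0.

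All 12 listed proteins that bind AU-rich elements or cut cytokine mRNAs were expressed, and 0 passed the threshold in limma, with 0 at an unadjusted p under 0.05, 0 past the adjusted threshold by voom on recovered reads, and a median log2 fold change of -0.06. With 8.98% of all tested genes called lower and 4.99% higher, few calls were to be looked for among 12 genes. RC3H2, which binds and destabilizes cytokine mRNAs, had a log2 fold change of -0.20 ± 0.10 (SE) and passed in limma under 3 of 18 alternatives, which were both that removed the GC and length trend (adjusted p 0.0303 and, with the replicate block, 0.0214) and the 1 without NEAT1siRNA replicate 2 (0.0253). ZFP36, which speeds the decay of cytokine mRNAs, stood at 17.9 ± 1.19 and 16.8 ± 1.33 TPM (SD, n = 3 each), and ZC3H12A, a ribonuclease that cuts them, at 2.37 ± 0.201 and 1.99 ± 0.516 TPM (SD, n = 3 each). Beside these, 9 of 21 tested interferon-stimulated genes were higher, against 4.99% of all tested genes. All 21 were fitted above 0, with a median log2 fold change of 0.23, against -0.04 over all tested genes. OAS1, a sensor of double-stranded RNA, was among them with a log2 fold change of 0.67 ± 0.09 (SE), and MX1, an antiviral GTPase, with 0.50 ± 0.10 (SE). CCL5, known to be induced by interferon, was not called beside them, and the part of these genes in the member results was not tested.

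**Figure D5:**
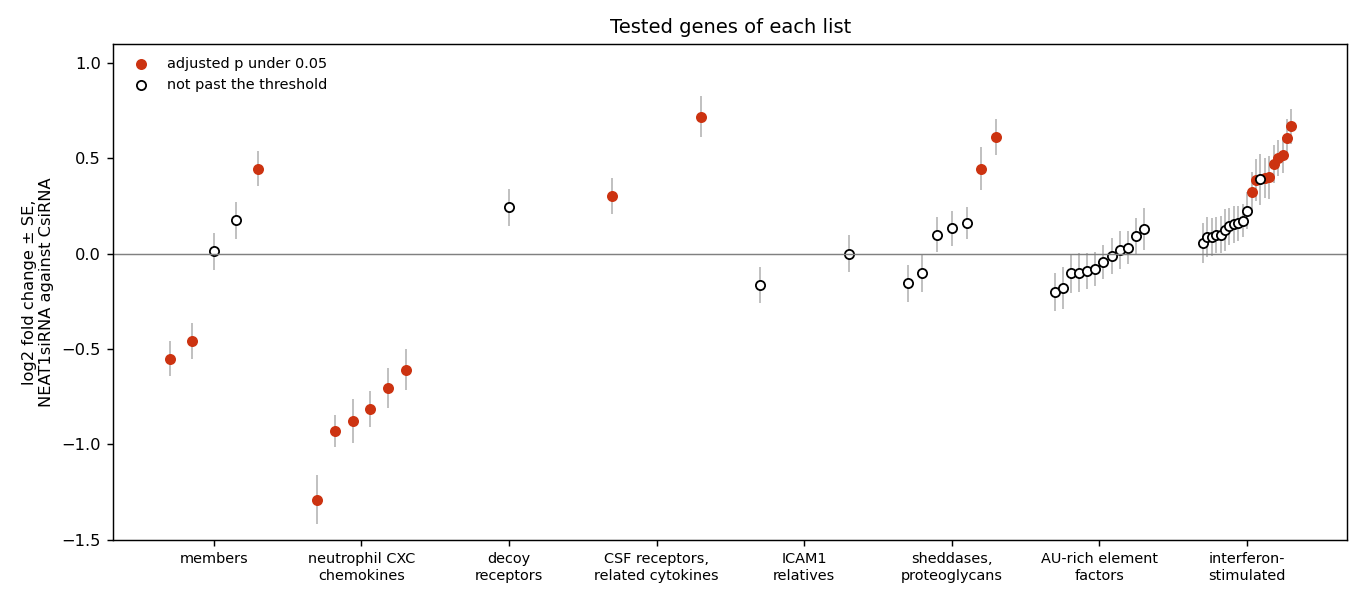
Log2 fold change of NEAT1siRNA against CsiRNA with its SE (vertical axis) for every tested gene of 8 lists (horizontal axis), with genes at an adjusted p under 0.05 in red and the others open. The 6 neutrophil-attracting chemokines lie below ICAM1 and CCL2, and the AU-rich element factors lie between -0.20 and 0.13.

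For the pair of members with the lowest adjusted p, the 3 tested genes of most similar pattern were found by the root mean square difference of their deviations from the CsiRNA mean, on log2(TPM + 1) over the 6 libraries. For ICAM1 these were RAP1GAP2, PINX1 and TMPPE, with differences of 0.0388, 0.0431 and 0.0460. RAP1GAP2 fell from 7.57 ± 0.218 to 4.86 ± 0.0820 TPM (SD, n = 3 each). For CSF1 they were LOC730101, B3GNT9 and SNED1, with differences of 0.0172, 0.0268 and 0.0289. B3GNT9 rose from 10.2 ± 0.735 to 14.1 ± 0.372 TPM (SD, n = 3 each).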

How the data were processed

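RNA-seq was performed on BT-549 cells transfected with CsiRNA or NEAT1siRNA, with 3 libraries per group. The authors prepared stranded mRNA libraries, aligned reads to GRCh38 with STAR, deposited TPM per gene and library, and compared groups with DESeq2. The counting program, its strand setting and the gene lengths are not given in the sources used here. The deposited comparison table holds a mean normalized count, a pooled signal over the 6 libraries, which was used to recover reads. Its fold changes, standard errors, test statistics and p-values are the authors' own comparison and were not used.

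Deposited TPM were transformed to log2(TPM + 1), and groups were compared with lmFit and eBayes (trend) of limma 3.58.1 in R 4.3.3 with Benjamini-Hochberg adjustment over 10721 genes. p-values rest on the spread between the 3 cultures of each group, moderated by eBayes toward the variance trend over all tested genes. Most of the 25.2 degrees of freedom of each test came from that trend. The SE and p-value of a gene are thus not those of its own cultures alone. Recovered reads came within 0.05 of a whole number for 99.9% of values of genes with a mean normalized count under 5, for 98.5% from 5 to 50, for 73.5% from 50 to 500 and for 17.2% above, so those of high genes are approximate. The short RNAs RN7SK, RN7SL1, RN7SL2 and RPPH1 took from 64.4% to 68.1% of TPM but from 2.30% to 3.01% of recovered reads. The fit was tested on simulated data. Coordinates came from GENCODE on GRCh38. Python 3.11.15 was used with scipy 1.17.1, pandas 2.3.3, matplotlib 3.10.9 and numpy 2.4.6.

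The members, the lists and the tests were chosen with earlier results of these data known. The genes named are the 10 members, NEAT1, every gene of the role lists past the threshold, the receptors and partners of the members (some not reported here), and for the 2 members with the lowest adjusted p the 3 genes of most similar pattern. Examples from other lists and the ratios were chosen after their values were seen. Alternatives were a pseudocount of 0.1, no filter, a filter at a mean TPM of 5, quantile normalization, median centring, TPM without the 4 short RNAs, eBayes without trend, a replicate block, each library left out, voom on recovered reads (10 or more on average, with TMM or library totals), and a spline fit (4 degrees of freedom) of GC content and length subtracted with or without the block.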

Additional observations from a re-analysis of the deposited data

How the results depend on the processing

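CCL2 and ICAM1 kept their calls and directions under all 18 alternatives, with log2 fold changes from -0.53 to -0.40 and from -0.59 to -0.49, and so did CSF1, from 0.38 to 0.51. Their highest adjusted p were 0.0397, 0.0119 and 0.0324. CCL5 was called under 0 of 18, with log2 fold changes from -0.06 to 0.09. CXCL16 was called under 1 of 17, the removal of the GC and length trend with the replicate block, where its adjusted p was 0.0352 and 2 members were higher (0.0535 without the block). Without a filter 8 members were tested and 2 were lower and 1 higher. The related genes called higher numbered 2 without a filter and 2 at a mean TPM of at least 5, where fewer of them were tested, against 5 or 6 under quantile normalization, median centring, TPM without the short RNAs, voom and removal of the GC and length trend. Those called lower numbered 5 and 4 in the first pair of settings. The calls of SDC2, FLT3LG and CXCL5 were lost without a filter (adjusted p 0.128, 0.0886 and 0.0784). With each library left out in turn, 2 members were lower and 1 higher throughout, and related genes numbered from 6 to 7 lower and from 3 to 4 higher.

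The replicate numbers were not shown to pair the samples: the correlations of same-numbered libraries were -0.03, 0.25 and -0.11, and not every library correlated best with its own number. With the replicate block, 2 members were lower and 1 higher and 6 related genes were lower and 4 higher, while calls over all tested genes went from 1498 to 1640. Over all genes the calls were 963 lower and 535 higher, against 1109 and 1082 with quantile normalization, 954 and 1158 with median centring, 1323 and 1411 with voom and TMM, and 1638 and 1562 without the GC and length trend. They numbered 759 without CsiRNA replicate 1, 838 without NEAT1siRNA replicate 3 and 505 without a filter, and 2083 without NEAT1siRNA replicate 2, of which 1590 were lower.

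Depth limits CSF2, CSF3, CCL20, CX3CL1 and CXCL12, which had at most 5 reads in a library, and with 3 libraries per group changes of the size fitted for CXCL16 were not resolved. Only RNA was measured.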
